A study of Mus musculus with 18 samples.

Results

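The comparison concerns the RNA that tagged ribosomes of cholinergic neurons brought down, above non-specific background, from the spinal cord of mice carrying the P278KY change in Gars. Its members are the 9 libraries of P278KY+/- mice among the 18 libraries of the series, chosen by their genotype labels. Of these, 3 came from Rpl+/-;Chat+/-;P278KY+/- mice (Cre) and 6 from Rpl+/-;Chat+/+;P278KY+/- mice (NoCre). Both groups carried 1 RiboTag allele of Rpl22 and the Gars change, and by their labels they differed in the Chat-Cre driver. The other 9 libraries, 4 Cre and 5 NoCre from P278KY+/+ (WT) mice with the same Rpl and Chat genotypes, entered the fit and were used to ask where the pattern differed in the mutant. All mice were 8 weeks old on a B6;CASTxB6.129 background, and their sex is not in the labels. Libraries carry separate mouse names, so the p-values measure the spread between these mice. Some names share a number of unstated meaning, those of Cre replicates 1 and 3 among them.

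RiboTag is an allele of Rpl22, a protein of the large ribosomal subunit, that switches to a haemagglutinin-tagged form in cells with Cre recombinase. Immunoprecipitation of the tag then enriches the mRNA on the ribosomes of those cells, and the precipitate from mice without Cre shows what sticks without a tag. Chat encodes choline acetyltransferase, and Chat-Cre marks the cholinergic cells of the cord as a whole: alpha and gamma motor neurons, preganglionic autonomic neurons and cholinergic interneurons. Gars encodes glycyl-tRNA synthetase, and dominant changes in it cause a peripheral neuropathy. In bulk RNA, fewer cells of a type and less RNA per cell cannot be told apart.

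The Cre libraries held 15461487 to 18944805 counts and the NoCre libraries 9876870 to 14450218. Mitochondrial ribosomal RNA took 2.16% to 4.88% of the counts in Cre and 24.2% to 38.6% in NoCre, and protein-coding genes 64.0% to 81.5% and 37.5% to 60.4%. NoCre replicate 6 had the lowest protein-coding share and the most mitochondrially encoded mRNA, and Cre replicate 3 had the most glial and nuclear RNA of the Cre libraries. Index sequences recur in the labels, which splits the libraries into 2 inferred pools. The 3 Cre libraries and NoCre replicates 1 to 3 were in the first pool, and NoCre replicates 4 to 6 in the second. Y-linked transcripts marked Cre replicate 1 and NoCre replicates 1 to 3 as male, and Xist marked the other 5 libraries as female. The part of sex in the results was not tested. The pool was examined by a fit with the pool as a term and by a fit of the first pool alone. By the same transcripts the WT libraries of the first pool were male and those of the second female. Pool and sex therefore largely coincide, and these fits cannot tell them apart.

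Enrichment and depletion were broad. Of 17133 genes tested, 59.4% differed between Cre and NoCre at an adjusted p under 0.05 in edgeR's quasi-likelihood test: 4840 (28.2%) were higher and 5345 (31.2%) lower in Cre. In 56.2% of genes the Cre and NoCre values did not overlap. Without NoCre replicate 6 the counts were 5073 higher and 4978 lower. Depletion reached further, with 1671 genes lower by more than 8-fold and 200 higher. Among 14786 protein-coding genes 31.7% were higher and 27.9% lower, with a median log2 fold change of 0.06. Among 1340 long non-coding RNAs 34 were higher and 751 lower, with a median of -2.18. The median over all genes was -0.13, against which the list medians below are read, and it moved to -0.25 with RLE size factors in place of TMM. Counts of list members are likewise read against the 28.2% and 31.2% of all genes called higher and lower. Levels are given as CPM scaled by TMM, that is counts relative to library size, and "rose" or "fell" means an adjusted p under 0.05.

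**Figure D1:**
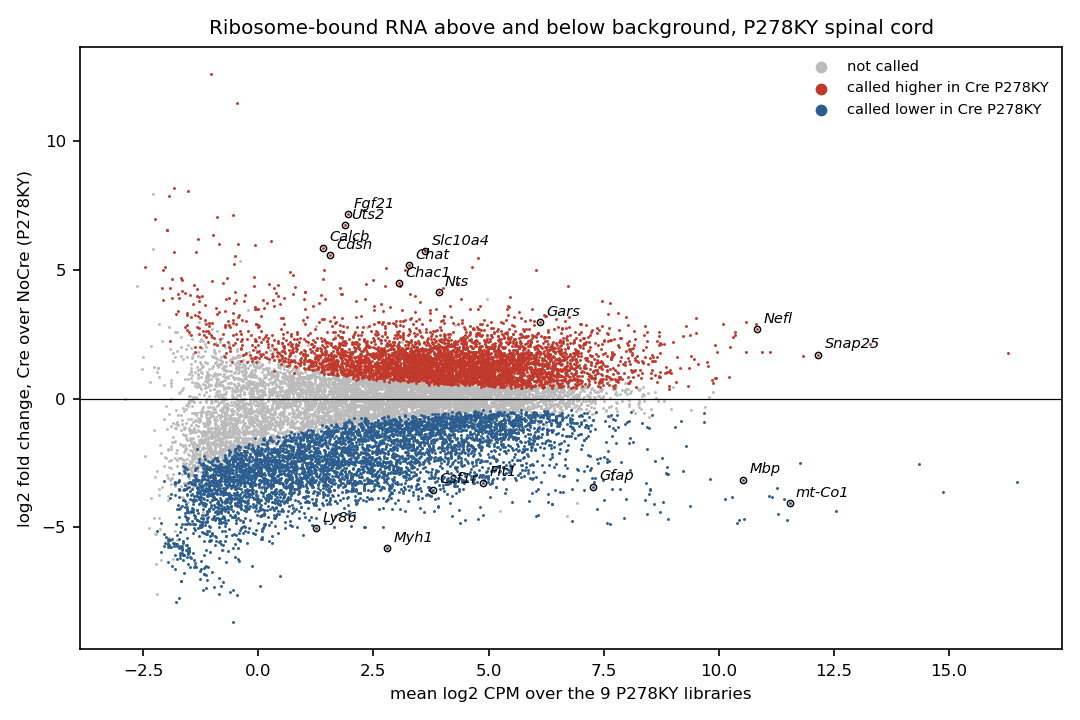
Each point is 1 of the 17133 genes tested, with its mean log2 CPM over the 9 P278KY libraries on the x axis and its log2 fold change of Cre over NoCre on the y axis. Red points were called higher in Cre (4840) and blue points lower (5345), and of the labelled genes Fgf21 and Uts2 lie highest and Myh1 lowest.

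The labelled cell type was checked against 4 markers. Chat (ENSMUSG00000021919; GRCm38 chromosome 14, 32408203 to 32465989) stood at 119.5, 97.8 and 97.7 CPM in the 3 Cre libraries and 1.93 to 3.58 CPM, median 3.04, in the 6 NoCre libraries. Its log2 fold change was 5.19 ± 0.28 (SE; edgeR adjusted p = 7.26e-12). Slc5a7, the high-affinity choline transporter (chromosome 17, 54273590 to 54299034), stood at 799.8, 808 and 416 CPM in Cre and 17.1 to 26.2 CPM, median 20.6, in NoCre. Cre replicate 3 had as much Chat as replicate 2 and less Slc5a7, still far above every NoCre library. Slc10a4, a vesicle protein of cholinergic terminals (chromosome 5, 73006883 to 73012955), stood at 189, 179.6 and 171 CPM against 1.39 to 4.44 CPM, median 3.84, with a log2 fold change of 5.73 ± 0.29 (edgeR adjusted p = 3.41e-12). Prph, the neuronal intermediate filament peripherin (chromosome 15, 99055174 to 99058978), stood at 324, 274 and 472 CPM against 4.53 to 13.6 CPM, median 8.32. All 4 markers rose, by 5.00 to 5.73 on the log2 scale, with no overlap between Cre and NoCre. Rpl22, the gene that carries the tag, stood at 34.6 to 34.7 CPM in Cre and 15.0 to 25.03 CPM in NoCre, a log2 fold change of 0.89 ± 0.22 (edgeR adjusted p = 0.00204).

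**Figure D2:**
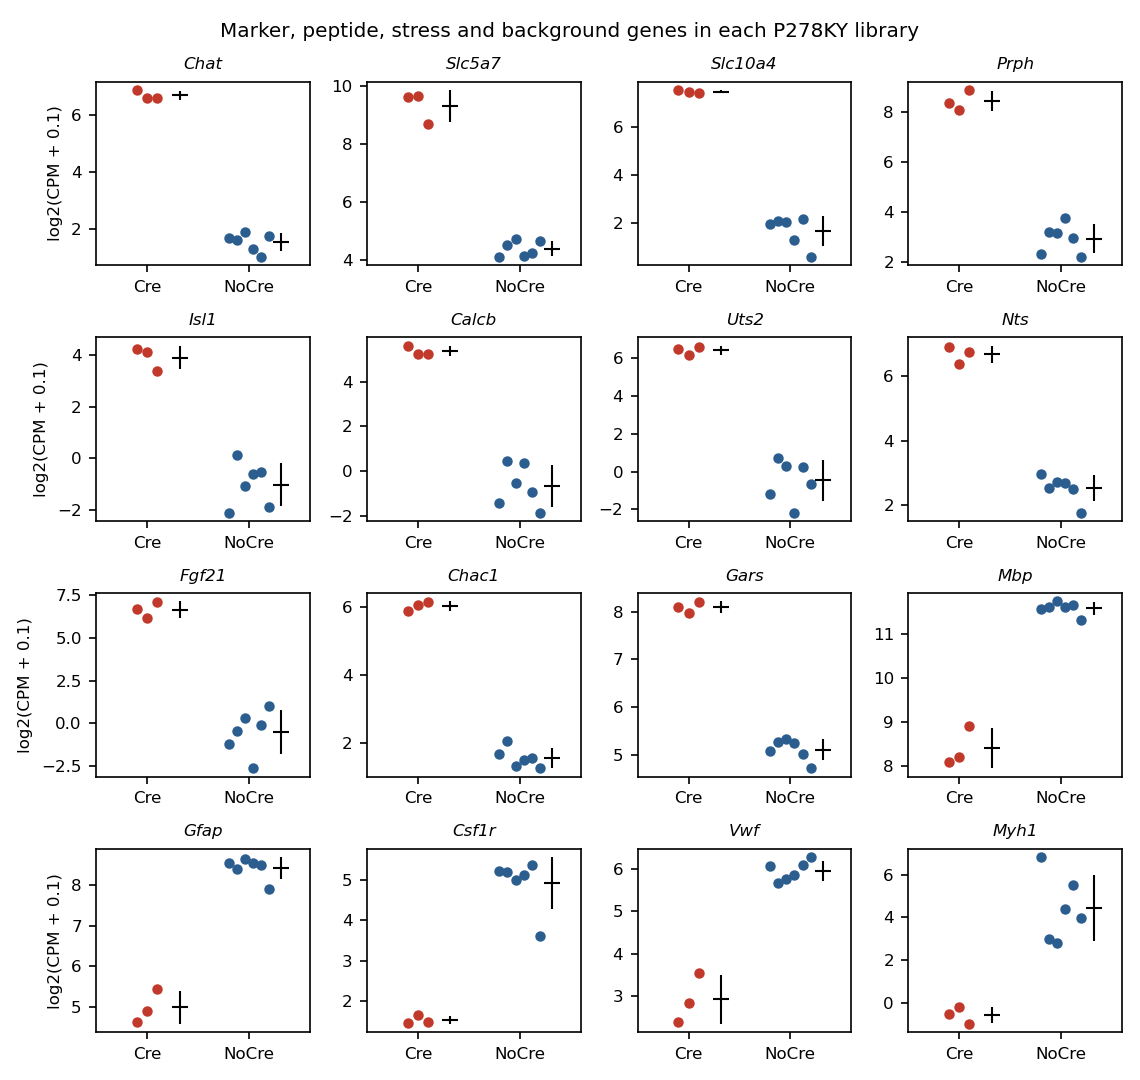
Each panel shows 1 gene as log2(CPM + 0.1) in the 3 Cre (red) and 6 NoCre (blue) P278KY libraries, with the mean and SD of each group beside its points. The groups do not overlap in any of the 16 panels, with the 11 genes from Chat to Gars higher in Cre and the other 5 lower.

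Genes of acetylcholine handling rose for the most part. Of 9 members tested, 6 were higher and 2 lower, with a median log2 fold change of 2.82. Acly, which makes cytosolic acetyl-CoA, stood at 1182, 955 and 1180.2 CPM in Cre and 71.5 to 98.4 CPM in NoCre, a log2 fold change of 3.71 ± 0.21 (edgeR adjusted p = 2.11e-11). Acetylcholinesterase, Ache, stood at 158 to 184 CPM against 30.9 to 45.5 CPM, and Prima1, which anchors that enzyme in membranes, at 20.9 to 29.7 CPM against 2.63 to 4.12 CPM. Acly, Ache and Prima1 were chosen after their values were seen. The members that fell were Bche, a related cholinesterase, by 2.29 ± 0.41, and Slc44a1, a choline transporter of many cell types, by 1.51 ± 0.33 on the log2 scale.

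Transcription factors of motor neurons were low in counts, and more of them rose than fell. Of 14 tested, 7 rose and 3 fell, with a median of 1.57. Isl1, which helps to specify motor neurons, stood at 18.5, 17.1 and 10.2 CPM in Cre and 0.13 to 0.99 CPM in NoCre. Mnx1, also called Hb9, stood at 15.2, 13.2 and 14.0 CPM against 0.17 to 0.93 CPM. Their log2 fold changes were 4.93 ± 0.45 and 4.79 ± 0.46 (edgeR adjusted p = 1.62e-08 and 3.37e-08), and Bcl6 rose by 2.62 ± 0.22. The members that fell were Zeb2, Ebf2 and Onecut2, by 2.62, 1.87 and 1.65 on the log2 scale. Zeb2, which glia also express, stood at 26.1, 34.6 and 70.8 CPM in Cre, highest in replicate 3, the Cre library with the most oligodendrocyte RNA. The part of glial RNA in the Zeb2 values was not tested.

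Markers of both alpha and gamma motor neurons rose. Of 12 alpha and fast motor neuron genes 9 were higher and 1 lower, with a median of 3.16. Chodl, a lectin-like membrane protein of fast motor neurons, stood at 79.0, 62.9 and 73.9 CPM in Cre and 1.28 to 3.65 CPM in NoCre, a log2 fold change of 5.08 ± 0.30 (edgeR adjusted p = 3.26e-11). Ret, the receptor through which GDNF-family factors signal, stood at 330.4, 375 and 236 CPM against 19.9 to 34.4 CPM. Every Cre library lay well above every NoCre library in both genes. Kcnq5, a potassium channel subunit, fell by 1.15 ± 0.34 (edgeR adjusted p = 0.00613; 0.0517 without Cre replicate 1). Rbfox3, the antigen NeuN that marks alpha rather than gamma motor neurons, stood at 64.6 to 91.3 CPM in Cre and 46.2 to 61.7 CPM in NoCre and missed the threshold, with a log2 fold change of 0.46 ± 0.20 (edgeR adjusted p = 0.0558; 0.0477 without NoCre replicate 6 and 0.0188 in a fit of the 9 P278KY libraries alone). It was named after its values were seen. Among 9 gamma motor neuron genes 8 rose and 1 fell, with a median of 1.93. Gfra1, a GDNF co-receptor, rose by 1.99 ± 0.19, the nuclear receptor gene Esrrg by 1.93 ± 0.29 and the serotonin receptor gene Htr1d by 2.60 ± 0.39. Pard3b, a polarity protein, fell by 2.10 ± 0.43.

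Neuropeptide precursors were among the genes furthest above background. Of 19 tested, 10 rose and 3 fell, with a median of 1.49. In WT mice 9 rose and 3 fell, with a median of 1.03. Of all genes tested 28.2% rose and 31.2% fell in P278KY mice. Uts2, which encodes urotensin II, stood at 91.0, 71.4 and 98.5 CPM in Cre and 0.12 to 1.57 CPM, median 0.81, in NoCre. Uts2b, which encodes a related peptide, stood at 22.0, 13.9 and 13.1 CPM against 0 to 0.52 CPM. Their log2 fold changes were 6.73 ± 0.54 and 6.12 ± 0.46 (edgeR adjusted p = 1.33e-08 and 7.95e-10). Calca and Calcb encode calcitonin gene-related peptides, which motor neurons carry. Calca stood at 152, 69.6 and 77.4 CPM against 1.49 to 6.90 CPM, and Calcb at 48.9, 38.2 and 37.4 CPM against 0.17 to 1.28 CPM. Nts, which encodes neurotensin, stood at 120.2, 82.8 and 107 CPM against 3.31 to 7.72 CPM, and Cartpt at 48.4, 39.0 and 67.4 CPM against 0.87 to 4.10 CPM. Cre and NoCre were apart in all 6 of these genes. Of the members that fell, Npy fell by 2.82 ± 0.66 on the log2 scale. Grp and Nmu, at no more than 2.13 CPM in any P278KY library, lost the call in several of the fits that left out 1 library, and the list's lower calls then ran from 1 to 5.

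Other genes ranked by size of rise were of mixed function. Arhgap36, an inhibitor of protein kinase A, stood at 283, 233 and 284 CPM in Cre and 6.15 to 9.69 CPM in NoCre. Sncg, which encodes gamma-synuclein, stood at 155, 172 and 179.9 CPM against 3.77 to 13.8 CPM. Vdr, the vitamin D receptor gene, stood at 29.5, 31.3 and 15.8 CPM against 0.42 to 1.27 CPM, and Dleu7 at 25.7, 19.9 and 19.3 CPM against 0.35 to 1.10 CPM. Their log2 fold changes ran from 4.49 for Sncg to 5.13 for Arhgap36.

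**Figure D3:**
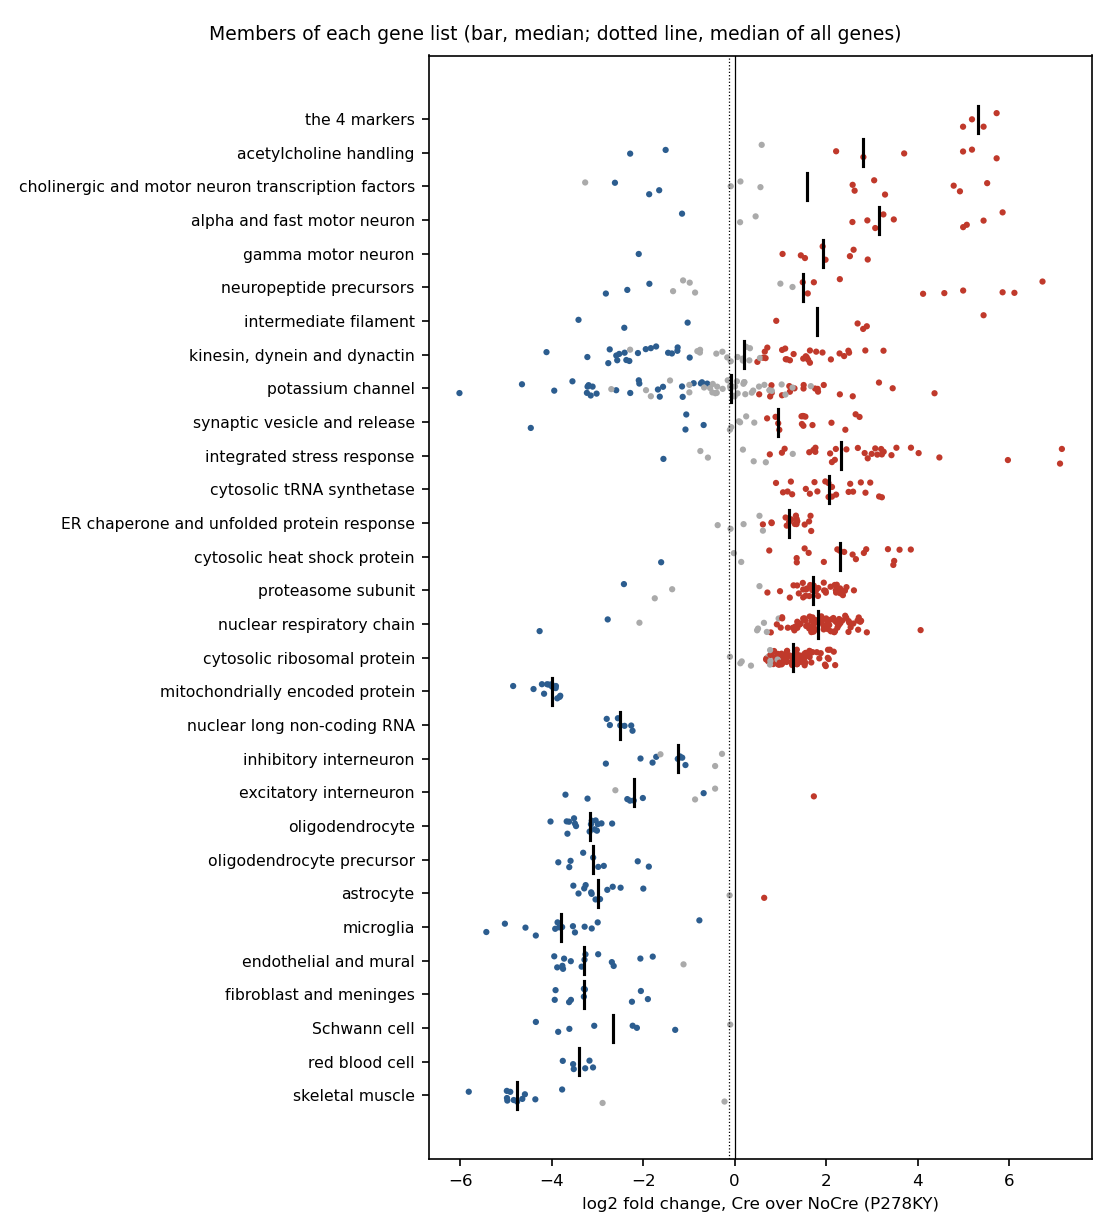
Each point is 1 tested member of a gene list, placed by its log2 fold change of Cre over NoCre in P278KY mice, with red for called higher, blue for called lower and grey for not called. Bars are list medians and the dotted line is the median of all genes, -0.13; the marker and motor neuron lists lie right of it and the glial, vascular, blood and muscle lists left.

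The neurofilament genes of large axons rose. Nefl, the light chain, stood at 6192 to 6453 CPM in Cre and 828 to 1108 CPM in NoCre. Nefm and Nefh, the medium and heavy chains, stood at 5488 to 8532 and 1906 to 2911 CPM against 747 to 1595 and 275 to 569.5 CPM. Their log2 fold changes were 2.69 ± 0.16, 2.89 ± 0.33 and 2.81 ± 0.28 (edgeR adjusted p = 3.26e-11, 6.20e-07 and 6.82e-08). The glial filament genes Gfap and Vim fell, by 3.42 ± 0.56 and 2.41 ± 0.42. The 60 tested genes of kinesins, dynein and dynactin split, with 26 higher and 19 lower and a median of 0.21. Of all genes tested 28.2% were higher and 31.2% lower. The cargo-binding kinesin light chains Klc1 and Klc2 rose by 2.86 ± 0.21 and 2.49 ± 0.21, and the dynein subunit Dync1li1 by 2.50 ± 0.21. Among those that fell were Kif1c, Kif13a and Kif24, by 2.57, 1.94 and 2.73 on the log2 scale.

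Channel and receptor families held members that rose and members that fell. Among all genes tested 28.2% rose and 31.2% fell, and both channel families lay near those shares. Among 79 potassium channel genes 20 rose and 23 fell (median -0.09), and among 36 sodium and calcium channel genes 9 rose and 10 fell (median -0.05). Both medians changed sign in some alternatives. Kcnk3 and Kcnk9 encode the acid-sensitive leak channels TASK-1 and TASK-3. Kcnk3 stood at 84.9, 91.8 and 57.0 CPM in Cre and 7.19 to 12.2 CPM in NoCre, and the log2 fold changes were 3.16 ± 0.27 and 2.58 ± 0.21 (edgeR adjusted p = 4.76e-09 and 3.03e-09). The potassium channel subunit Kcnab2 rose by 1.82. On the sodium and calcium channel list, which was drawn by gene symbol, Cacna2d3, Cacng5 and Cacng3 rose by 2.05, 1.84 and 1.48. Of 26 glutamate receptor genes 6 rose and 8 fell. Grin3b, an NMDA receptor subunit, stood at 12.6, 13.3 and 13.8 CPM against 0.17 to 1.51 CPM, and the kainate receptor gene Grik3 fell by 2.39 ± 0.34. Of 22 GABA and glycine receptor genes 7 rose and 4 fell. Glrb, the glycine receptor beta subunit, rose by 1.79 ± 0.19, and Gabra4, a GABA receptor subunit, fell by 1.92 ± 0.55. Of 10 nicotinic receptor genes 3 rose and 4 fell, with Chrnb4 at 3.41 to 5.38 CPM against 0.35 to 2.44 CPM and Chrna2 at 0.12 to 0.21 CPM against 0.70 to 2.34 CPM.

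Of 17 trophic factor receptor genes 5 rose, Ret and Gfra1 among them, and 4 fell, beside 28.2% and 31.2% of all genes tested. Among the latter were Kdr, the endothelial VEGF receptor, by 3.58 ± 0.59, the oncostatin M receptor gene Osmr by 3.45 ± 0.46 and the insulin receptor gene Insr by 0.85 ± 0.21. Genes of synaptic vesicles and release mostly rose, 15 of 25 with 4 lower and a median of 0.95. Rab3a, Syt4 and Cplx1 rose by 2.73 ± 0.24, 2.65 ± 0.19 and 2.12 ± 0.16. Slc32a1, the vesicular transporter of inhibitory neurons, fell by 1.08 ± 0.39 (edgeR adjusted p = 0.0207; 0.105 without Cre replicate 1 and 0.0648 without Cre replicate 2). Of 32 tested Hox genes, which pattern the body axis, 2 rose and 10 fell, the falls near the share of all genes called lower. Hoxd9 stood at 16.1, 16.3 and 22.5 CPM in Cre and 1.57 to 8.21 CPM in NoCre. Hoxa7, the other that rose, overlapped between the groups at 39.9 to 51.3 and 25.8 to 49.1 CPM (edgeR adjusted p = 0.0425; 0.106 with RLE size factors and 0.121 without Cre replicate 1). Hoxd3 and Hoxc5 fell by 2.31 ± 0.37 and 1.66 ± 0.36.

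Genes of the integrated stress response were well represented in the enriched fraction. In this response, kinases that sense amino acid shortage, stalled ribosomes and other stresses phosphorylate the initiation factor eIF2, general translation falls, and the factor ATF4 switches on genes for amino acid uptake, synthesis and tRNA charging. Of 36 tested members 29 rose and 1 fell, and the median was 2.33. Fgf21, a secreted hormone and ATF4 target, stood at 103, 70.5 and 138 CPM in Cre and 0.06 to 1.92 CPM, median 0.74, in NoCre (log2 fold change 7.16 ± 0.49, edgeR adjusted p = 4.69e-09). It ranked first among the genes named for the size of their rise. Chac1, which degrades glutathione, stood at 58.5, 66.1 and 71.0 CPM against 2.26 to 4.06 CPM, and Asns, asparagine synthetase, at 193, 201 and 192 CPM against 11.8 to 23.9 CPM. Their log2 fold changes were 4.48 ± 0.29 and 3.26 ± 0.22, and neither gene overlapped between Cre and NoCre. The member that fell, by 1.56 ± 0.47, was Slc7a11, the cystine transporter, which astrocytes also express.

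All 23 tested genes of cytosolic aminoacyl-tRNA synthetases rose, with a median of 2.05 and no overlap between Cre and NoCre in any of them. Of all genes tested 28.2% rose, and 56.2% did not overlap. In WT mice 21 of the 23 rose and 0 fell, with a median of 1.23. Gars itself stood at 274, 250.03 and 296 CPM in Cre and 26.3 to 40.2 CPM, median 35.9, in NoCre, a log2 fold change of 2.97 ± 0.20 (edgeR adjusted p = 1.63e-10). Wars, Nars and Rars rose by 3.22 ± 0.22, 3.16 ± 0.21 and 2.86 ± 0.19. Of 17 mitochondrial synthetases 3 rose and 1 fell, with a median of 0.15. Yars2 rose by 1.09 ± 0.33 and Wars2 fell by 1.10 ± 0.34. Lars2 stood at 26406, 16227 and 41427 CPM in Cre and 3828 to 8183 CPM in NoCre (edgeR adjusted p = 0.0128; 0.0603 without Cre replicate 3). Across the Cre libraries it followed the order of Gm26924, a locus that took 22.5%, 13.4% and 26.3% of their counts, and the part of that locus in the Lars2 result was not tested.

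ATF4 binds composite sites shared with C/EBP proteins. The motif TGATGNAA, searched on both strands, was found in the promoters of 6 of the 24 raised stress response genes (25%) and 5 of the 15 raised synthetase genes (33.3%) that have an entry in the RefSeq promoter table (GRCm38.p6, from 250 bases before to 50 bases after the start site). It occurred in 2.8% of the promoters of all genes tested, 3.1% of those called higher and 2.6% of those called lower. A match of letters is a description and not a bound site. Both lists hold genes of the response that ATF4 drives, and only their raised members were counted. Their shares are therefore no test of ATF4 in these mice. The 250 bases before the start site are shown for Fgf21, Chac1 and Asns, the raised stress genes described above, and for Gars, the gene changed in these mice, with the match in capitals.
Fgf21: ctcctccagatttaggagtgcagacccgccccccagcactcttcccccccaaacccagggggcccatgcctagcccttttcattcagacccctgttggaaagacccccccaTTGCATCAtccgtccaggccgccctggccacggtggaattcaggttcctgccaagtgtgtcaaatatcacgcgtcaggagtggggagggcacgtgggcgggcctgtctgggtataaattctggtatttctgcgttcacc
Chac1: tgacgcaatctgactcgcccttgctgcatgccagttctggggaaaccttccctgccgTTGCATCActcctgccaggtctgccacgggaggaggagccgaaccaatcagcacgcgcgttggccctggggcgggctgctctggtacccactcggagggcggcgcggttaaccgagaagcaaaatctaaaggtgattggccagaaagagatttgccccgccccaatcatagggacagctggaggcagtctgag
Asns: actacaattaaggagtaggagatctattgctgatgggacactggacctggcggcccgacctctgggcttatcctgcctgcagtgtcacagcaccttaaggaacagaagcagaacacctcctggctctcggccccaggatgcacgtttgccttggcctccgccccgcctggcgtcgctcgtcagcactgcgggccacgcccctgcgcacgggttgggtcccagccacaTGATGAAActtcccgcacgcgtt
Gars: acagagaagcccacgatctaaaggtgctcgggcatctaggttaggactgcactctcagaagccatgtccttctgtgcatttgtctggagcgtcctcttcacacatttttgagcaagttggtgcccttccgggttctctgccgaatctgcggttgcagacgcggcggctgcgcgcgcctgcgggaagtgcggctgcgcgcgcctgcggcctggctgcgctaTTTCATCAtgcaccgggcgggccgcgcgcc
These are chr7:45615491-45615740 on the minus strand, chr2:119350992-119351241 on the plus strand, chr6:7693210-7693459 on the minus strand and chr6:55037751-55038000 on the plus strand, each written 5′ to 3′ along its gene. The matches begin 139, 193, 23 and 30 bases before the start site. In Fgf21, Chac1 and Gars they lie in the reverse direction, and in Asns in the forward direction.

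Chaperones, the proteasome and genes of the injured axon also lay above background. Of 21 genes of endoplasmic reticulum chaperones and the unfolded protein response 16 rose, with a median of 1.19. Dnajb9, Canx and Hspa5 rose by 1.67 ± 0.21, 1.32 ± 0.17 and 1.66 ± 0.24. Of 21 heat shock genes 18 rose and 1 fell, with a median of 2.30. Hsp90aa1 stood at 4263, 3867 and 4290.5 CPM in Cre and 465 to 625 CPM in NoCre. Hspb8, a small heat shock protein linked to motor neuropathy, stood at 226, 258 and 203 CPM against 15.5 to 21.4 CPM, and the chaperonin gene Hspd1 rose by 2.65 ± 0.17. Cryab, a small heat shock protein abundant in oligodendrocytes, fell by 1.61 ± 0.23. Of 38 proteasome genes 34 rose, Psmb4 by 2.61 ± 0.28, and 1 fell, with a median of 1.71. The one that fell, Psmb11, the thymus-type subunit, stood at 0.14 to 0.75 CPM against 1.67 to 5.05 CPM. Of 23 axon injury and regeneration genes 15 rose and 1, Npy, fell, with a median of 1.48. Stmn2, a tubulin-binding protein of growing axons, stood at 879.5, 943 and 867 CPM against 58.7 to 115 CPM. Tubb3 stood at 689, 749 and 1002 CPM against 29.1 to 46.1 CPM, and Jun at 104, 97.8 and 94.1 CPM against 15.0 to 20.0 CPM. Uninjured neurons express these 3 genes too. In WT mice 15, 15, 33 and 12 genes of the lists above rose, in the order given, and 0, 0, 2 and 2 fell. The WT medians were 0.70, 1.45, 1.74 and 0.91. Of all genes tested 28.2% rose in P278KY and 28.5% in WT mice.

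Genes of glia were depleted. All 16 oligodendrocyte genes fell, their median being -3.16, and their summed level was 744, 885 and 1849.9 CPM in Cre and 10049.5 to 13729 CPM in NoCre. Mbp, myelin basic protein, stood at 273, 295 and 487 CPM against 2563 to 3448 CPM. Residual myelin RNA was highest in Cre replicate 3, and Cre and NoCre did not overlap. All 9 oligodendrocyte precursor genes fell, among them Cspg4 by 3.86 ± 0.53 and Sox10 by 2.98 ± 0.40. Of 14 astrocyte genes 12 fell, with a median of -2.99, the GABA transporter gene Slc6a11 by 2.79 ± 0.38 and Sox9 by 2.00 ± 0.31. S100b rose, at 282 to 341 CPM against 125 to 267 CPM (edgeR adjusted p = 0.0126; 0.0533 without Cre replicate 3). All 14 microglial genes fell, with a median of -3.81. Csf1r, the receptor that microglia need to survive, stood at 2.65, 3.02 and 2.67 CPM in Cre and 12.2 to 41.7 CPM in NoCre, and Ly86 at 0.19, 0.04 and 0.41 CPM against 4.35 to 9.41 CPM.

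RNA of vessels, meninges, nerve roots, blood and muscle was also depleted. Of 15 endothelial and mural genes 14 fell (median -3.29), Vwf by 2.99 ± 0.31, Flt1 by 3.26 ± 0.36 and Slco1a4 by 3.75 ± 0.37. All 10 fibroblast and meningeal genes fell (median -3.30), with Fn1, fibronectin, at 12.6 to 25.5 CPM in Cre and 116 to 435 CPM in NoCre. Of 8 Schwann cell genes 7 fell, among them Prx, a myelin gene of peripheral nerve, by 3.86 ± 0.50. All 6 red blood cell genes fell, with Alas2, an enzyme of haem synthesis, at 0.89 to 1.37 CPM against 7.08 to 17.6 CPM. Skeletal muscle genes had a median of -4.76, with 11 of 13 lower. Their summed level was 45.8, 35.1 and 50.6 CPM in Cre, 1599 CPM in NoCre replicate 1 and 208 to 762 CPM in the other NoCre libraries. Myh1, a fast myosin, stood at 112 CPM in that library, 6.85 to 46.0 CPM in the other NoCre libraries and 0.41 to 0.77 CPM in Cre. Without NoCre replicate 1 the muscle median was -3.98. Of 6 tested ependymal genes 3 fell. Outside the lists, Car3, a carbonic anhydrase, Serpind1, a protease inhibitor of plasma, and Lcat, which esterifies cholesterol in lipoproteins, fell furthest among the genes named for their size, by 5.00, 4.97 and 4.93 on the log2 scale. In Lcat, NoCre replicate 6 stood at 1.74 CPM beside 16.4 to 19.7 CPM in the other NoCre libraries. Genes with near-identical copies, such as the myosins, globins, histones, calmodulins and tubulins, may share reads, and their single values are uncertain.

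**Figure D4:**
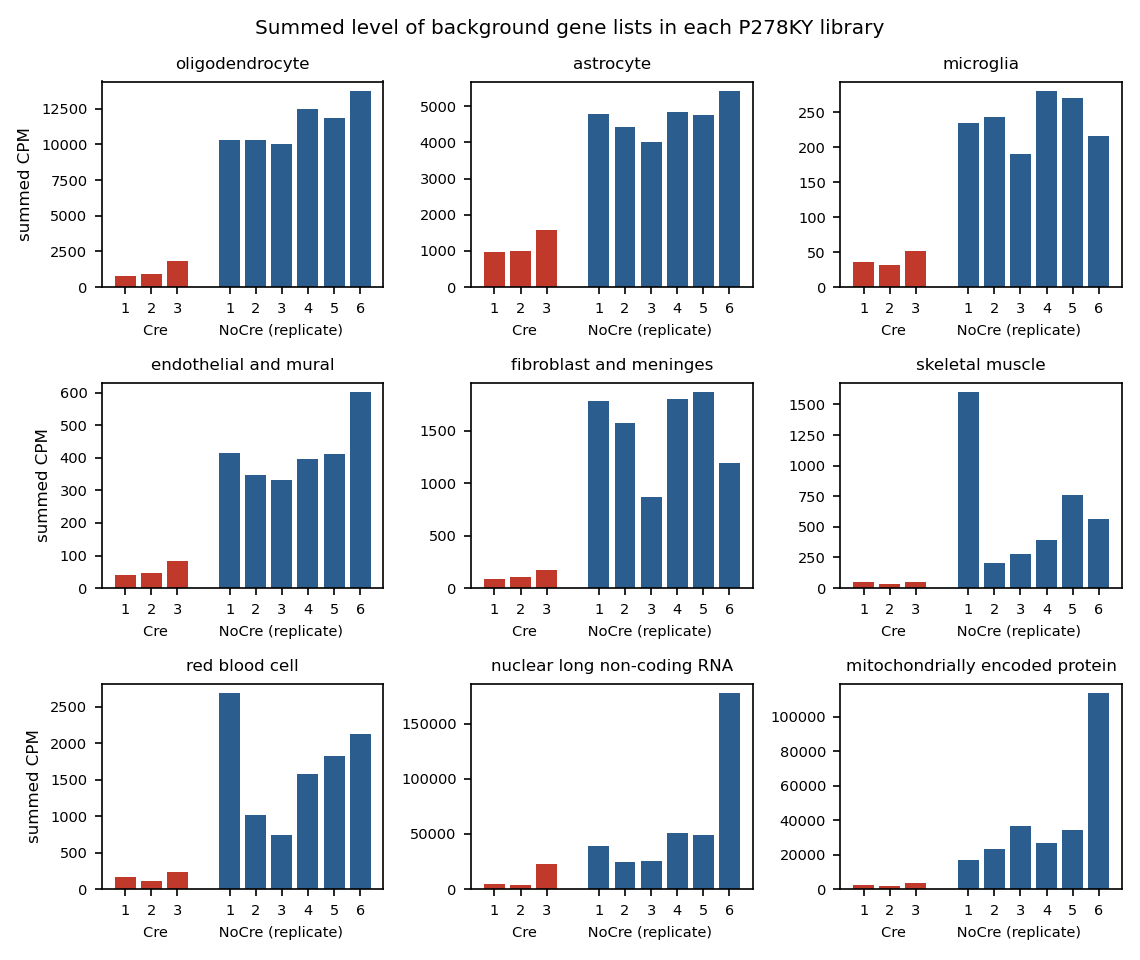
Bars give the summed CPM of the tested members of 9 gene lists in each P278KY library, Cre in red and NoCre in blue, numbered by replicate. Cre replicate 3 is the highest Cre library in all 9 panels, NoCre replicate 1 is highest for skeletal muscle and red blood cells, and NoCre replicate 6 is highest for nuclear long non-coding RNA and mitochondrially encoded mRNA.

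Genes of other neurons fell by less at the median than those of glia. Of 11 inhibitory interneuron genes 8 fell, with a median of -1.24, Sall3, a transcription factor gene, by 1.2 ± 0.28. Of 11 excitatory interneuron genes 7 fell and 1 rose, with a median of -2.21. Lmx1b and Ebf1, transcription factors, fell by 3.22 ± 0.40 and 2.29 ± 0.34, and Cck, which encodes cholecystokinin, rose by 1.73 ± 0.35. Of 7 tested sensory neuron genes 4 rose, of which Tubb3 and Isl1 are shared with motor neurons, and 2 fell. P2rx3, an ATP-gated channel of sensory neurons, stood at 21.9, 34.9 and 21.2 CPM in Cre and 0.47 to 3.54 CPM in NoCre. Scn10a, a sodium channel of nociceptors, had no count in Cre and 9.83 CPM in NoCre replicate 4, with no more than 0.27 CPM in the other NoCre libraries (edgeR adjusted p = 0.0485; 0.119 without NoCre replicate 4). The sensory list moved by its single members, and the source of P2rx3 RNA was not tested.

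Mitochondrial genes separated by the genome that encodes them. All 13 mRNAs encoded in the mitochondrion fell, with a median of -4.0. The mt-Co1 mRNA stood at 399.9, 448 and 542 CPM in Cre and 5826 to 12020.0 CPM in NoCre, and mt-Nd2 at 181 to 204 CPM against 742 to 14897 CPM. These mRNAs are translated inside the organelle by ribosomes that lack Rpl22. Nuclear genes of the respiratory chain rose, 82 of 90 with 2 lower and a median of 1.83. Atp5f1 and Atp5g1, subunits of ATP synthase, rose by 2.00 ± 0.18 and 2.10 ± 0.20. Those that fell were Cox4i2 and Cox6b2, lung-type and testis-type isoforms, at no more than 2.33 CPM in any P278KY library. Of 81 cytosolic ribosomal protein genes 72 rose (median 1.27), with Rpl19 at 108 to 150.3 CPM against 18.6 to 36.8 CPM and Rps15a higher by 1.05 ± 0.17. Of 75 mitochondrial ribosomal protein genes 68 rose, Mrps33 by 2.05 ± 0.26, and Mrpl48 fell by 2.68 ± 0.75. Of 31 tested replication-dependent histone genes 4 rose and 10 fell, beside 28.2% and 31.2% of all genes tested. Both mitochondrial ribosomal RNAs fell, with a median of -3.43. All 7 tested nuclear long non-coding RNAs fell (median -2.50), Snhg11 by 2.80 ± 0.53 and Mirg by 2.73 ± 0.37. Their summed level was 4551, 3857 and 23045 CPM in Cre and 24924 to 177541 CPM in NoCre, so Cre replicate 3 lay close to the lowest NoCre library.

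By the deposited TPM, a level corrected for transcript length and depth, Snap25, a membrane fusion protein of synapses, was highest among the protein-coding genes called higher, at 10579 ± 765 TPM in Cre (SD, n = 3) and a mean of 3192 TPM in NoCre. Lars2 came next at 10157 ± 2001 TPM, and then the calmodulin gene Calm2 at 8307 ± 1306 TPM. The chaperone gene Hspa8 stood at 3477 ± 1451 TPM, the glycolytic gene Gapdh at 3469 ± 899.6 TPM and Nefm at 3110.2 ± 155 TPM. Tuba1b, an alpha-tubulin, and Hsp90ab1, a chaperone, stood at 2705 ± 435 and 2329 ± 180.1 TPM. Among the protein-coding genes called lower, mt-Nd4 was highest in Cre, at 549 ± 152 TPM against a mean of 6818 TPM in NoCre. Cst3, which encodes cystatin C, stood at 308 ± 56.3 TPM against 651 TPM.

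Enrichment in mutants was set against that in WT mice, whose libraries are separate. Across 17133 genes the log2 fold changes in the 2 genotypes had a Pearson correlation of 0.824, a description over genes that are not independent. In WT mice 59.7% of genes were called. Of the genes called higher in P278KY mice 82.0% were also called higher in WT mice, which was 81.4% of the WT calls, and for lower genes the shares were 77.4% and 77.3%. The interaction test, which asks whether the difference between Cre and NoCre itself differed between genotypes, called 0.654% of genes: 59 (0.344%) higher and 53 (0.309%) lower in P278KY. Each of the 4 markers missed its threshold, with Chat nearest at 1.24 ± 0.37 (edgeR adjusted p = 0.145). With the mouse-name number as a block, Chat passed it (edgeR adjusted p = 0.0367), although these numbers were not taken to pair the mice. Chat averaged 105 CPM in Cre P278KY and 121 CPM in Cre WT, and 2.88 and 7.89 CPM in the matching NoCre groups. The number of interaction calls depended on single libraries, from 28 higher and 13 lower without Cre P278KY replicate 1 to 70 higher and 179 lower without Cre WT replicate 1. Within the first pool, which holds 3 Cre and 3 NoCre P278KY and 2 Cre and 2 NoCre WT libraries, 405 genes were called. In that pool only Cre P278KY replicates 2 and 3 were female by transcripts, so sex is not balanced there.

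**Figure D5:**
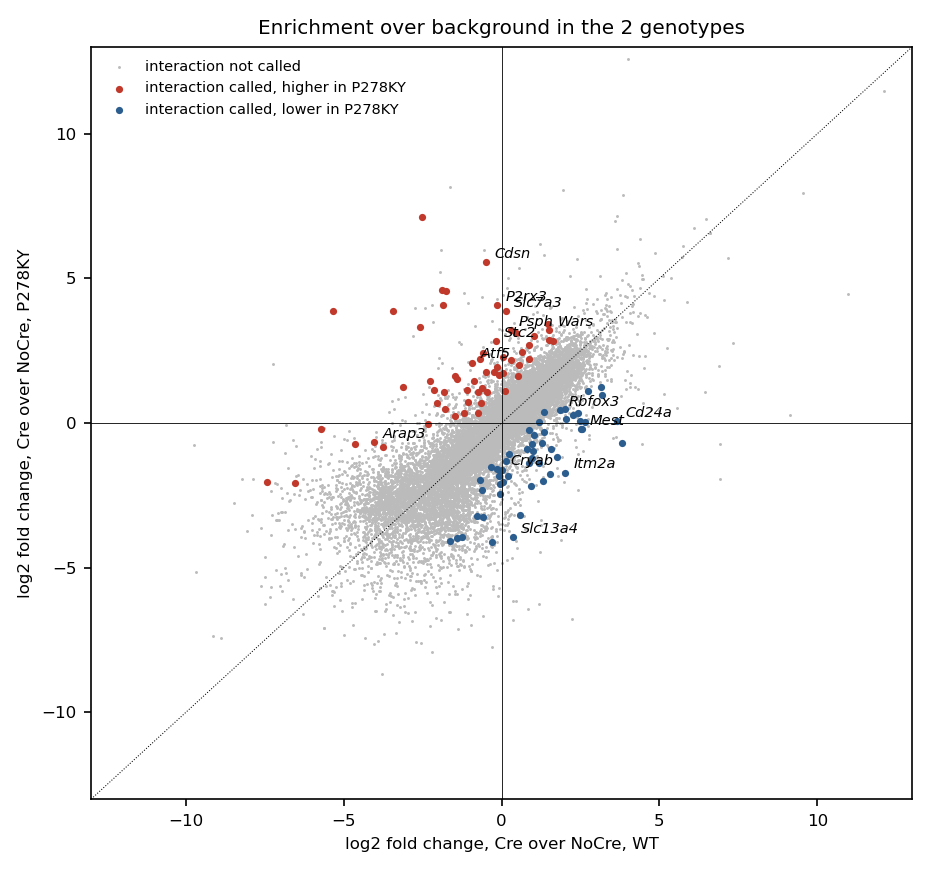
Each point is 1 gene, with its log2 fold change of Cre over NoCre in WT mice on the x axis and in P278KY mice on the y axis, and the dotted line marks equal values. Coloured points passed the interaction test, 59 higher (red) and 53 lower (blue) in P278KY; Cdsn, P2rx3 and Slc7a3 lie high on the y axis near 0 on the x axis.

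Stress response genes made up the most interaction calls of any list, 15 of 36 tested against 0.344% of all genes, all higher in P278KY. The list's median log2 fold change was 2.33 in P278KY and 0.16 in WT mice. Within the first pool these medians were 2.27 and 0.32, with 16 calls. Leaving out 1 library at a time gave 9 to 16 interaction calls, fewest without Cre P278KY replicate 1, and 1 call with library sizes alone as scaling. Slc7a3, a transporter of cationic amino acids, stood at 28.9 to 30.6 CPM in Cre P278KY and 1.62 to 2.11 CPM in Cre WT, with 0.87 to 2.66 and 0.52 to 2.59 CPM in NoCre. Psph, the last enzyme of serine synthesis, stood at 66.6 to 86.1 CPM in Cre P278KY and 6.36 to 11.2 CPM in Cre WT. The Cre groups did not overlap in either gene. The interactions were 3.72 ± 0.53 for Slc7a3, 2.92 ± 0.42 for Psph, 3.12 ± 0.52 for Phgdh, which starts serine synthesis, and 3.01 ± 0.38 for the factor gene Atf5 (edgeR adjusted p = 5.89e-04, 5.89e-04, 0.00328 and 2.70e-04), and all 4 held in each of the 18 fits that left out 1 library. That of the hormone gene Stc2, 3.04 ± 0.71 (edgeR adjusted p = 0.0485), held in 5 of them. Within the first pool Phgdh had log2 fold changes of 1.58 in P278KY and -2.68 in WT mice, and Atf5 of 2.115 and -0.82. All of these values passed the threshold. Those of Slc7a3 and Psph in WT mice were 1.22 and 0.44. Of the synthetases 2 passed, Wars at 1.72 ± 0.31 and Rars at 1.36 ± 0.26. Wars held in each of those 18 fits and missed the threshold within the first pool (edgeR adjusted p = 0.0733), and Rars without Cre P278KY replicate 1 (0.0571) or 3 (0.0671). Gars had an interaction of 0.94 ± 0.28 and missed it (edgeR adjusted p = 0.149). Fgf21 averaged 0.11 CPM in Cre WT and was at 0 in every NoCre WT library, so its WT ratio has no background level to rest on. Within the first pool the fitted interaction of Fgf21 was 2.75 and missed the threshold (edgeR adjusted p = 0.935).

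Several genes outside the stress response list had a higher log2 fold change of Cre over NoCre in P278KY than in WT mice. Cdsn, an adhesion protein of the epidermis, stood at 36.8 to 38.8 CPM in Cre P278KY and at no more than 1.26 CPM in any library of the other 3 groups (interaction 6.03 ± 1.17, edgeR adjusted p = 0.0118; 0.267 without NoCre WT replicate 1). P2rx3 stood at 21.2 to 34.9 CPM in Cre P278KY and 0.16 to 2.19 CPM in Cre WT, and its interaction of 4.20 ± 0.96 (edgeR adjusted p = 0.046) held in 4 of the 18 fits that left out 1 library. Cdkn1a, the cell cycle inhibitor p21, stood at 168 to 242 CPM in Cre P278KY and 5.72 to 36.6 CPM in Cre WT (interaction 3.03 ± 0.56; edgeR adjusted p = 0.0514 without Cre P278KY replicate 1). Within the first pool P2rx3 and Cdkn1a fell in WT mice, with log2 fold changes of -2.51 and -2.25 (edgeR adjusted p = 0.0209 and 1.08e-06), against -0.13 and -0.60 over all WT libraries, which missed the threshold. Fam129a, Ddr2, a collagen receptor gene, and Mdfic rose in P278KY and fell in WT mice. Their log2 fold changes in WT mice were -2.14, -1.42 and -2.26, and the interactions 3.26 ± 0.45, 2.93 ± 0.49 and 3.70 ± 0.76. Without Cre replicate 3 the rise of Mdfic missed the threshold (edgeR adjusted p = 0.0652). Mdfic missed the interaction threshold without Cre P278KY replicate 1 or 3 (edgeR adjusted p = 0.051 and 0.0636). Arap3 stood at 2.49 to 2.89 CPM in Cre P278KY, inside its NoCre range of 2.31 to 6.27 CPM, and at 0.26 to 0.74 CPM in Cre WT against 5.17 to 8.97 CPM in NoCre WT (interaction 3.37 ± 0.56). The interactions of Fam129a, Ddr2 and Arap3 held in each of the 18 fits that left out 1 library.

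Other genes had a lower log2 fold change in P278KY than in WT mice. Cd24a, a surface glycoprotein of neurons and other cells, stood at 58.5, 49.2 and 39.6 CPM in Cre P278KY and 34.7 to 57.0 CPM in NoCre P278KY, which overlap, and at 614 to 1010.5 CPM in Cre WT and 42.6 to 86.4 CPM in NoCre WT (interaction -3.61 ± 0.35, edgeR adjusted p = 4.77e-06). Itm2a fell below background in mutants, at 5.11 to 6.73 CPM against 15.5 to 26.5 CPM, and stood at 50.2 to 99.0 CPM in Cre WT (interaction -3.73 ± 0.37, edgeR adjusted p = 4.77e-06). Mest, an imprinted gene, and Mrvi1 rose in WT mice and overlapped with background in P278KY mice, with interactions of -2.73 ± 0.51 and -2.76 ± 0.51. Mest missed the interaction threshold without Cre P278KY replicate 3 (edgeR adjusted p = 0.0634), and Mrvi1 without replicate 1 (0.051) or 3 (0.0538). Pla2g3 and Wnk4 rose in WT mice and fell in P278KY mice, with interactions of -3.31 ± 0.61 and -3.32 ± 0.62 (Wnk4 edgeR adjusted p = 0.0565 without Cre P278KY replicate 1). Rbfox3 stood at 141 to 173 CPM in Cre WT, above all Cre P278KY libraries, and its interaction of -1.39 ± 0.29 (edgeR adjusted p = 0.0208) held in 14 of the 18 fits. Hist1h2bc, a histone gene, and Cryab fell in P278KY mice. Hist1h2bc rose in WT mice, by 0.88, and Cryab was at 0.02 there and not called. Their interactions were -2.25 ± 0.33 and -1.63 ± 0.30, and Cryab missed the threshold without Cre P278KY replicate 1 (edgeR adjusted p = 0.051). Pon3 had an interaction of -3.13 ± 0.67, which held in 15 of the 18 fits, and those of Cd24a, Itm2a, Pla2g3 and Hist1h2bc held in each of them.

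Slc13a4, Mxra8 and Fbln1, genes of fibroblasts and the meninges, fell in P278KY mice and were not called in WT mice. They had interactions of -4.31 ± 0.90, -3.82 ± 0.89 and -3.74 ± 0.80, which held in 14, 3 and 10 of the 18 fits that left out 1 library. The fibroblast and meningeal list had a median log2 fold change of -3.30 in P278KY and -0.32 in WT mice, and the oligodendrocyte list -3.16 and -1.77. Within the first pool these medians were -3.0 and -2.06, and -3.23 and -2.98. There Slc13a4 and Mxra8 missed the threshold (edgeR adjusted p = 0.111 and 0.237), and Fbln1 passed it at -2.59. The part of RNA from non-neuronal cells in these 3 results was not tested.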

How the data were processed

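Ribosome-bound RNA was precipitated by its tag from spinal cords and sequenced. The deposited tables give, per gene and library, RSEM's expected count and TPM made by the authors. The tools listed, per the submitters' processing notes, include RSEM (1.2.12) and Bowtie2 (2.2.0), with no roles given. Which build and annotation the authors used is not given in the sources used here. Of 38924 gene identifiers 37607 matched GENCODE M21 (GRCm38), which gave positions and gene types.

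Deposited expected counts were rounded and fitted with edgeR 4.0.16 (R 4.3.3; limma 3.58.1) by its quasi-likelihood test, with filterByExpr, TMM scaling and a mean for each of the 4 groups over all 18 libraries. Calls have a Benjamini-Hochberg adjusted p under 0.05 over all genes tested. DESeq2 1.42.0, other scalings, no filter, the index pool as a term, the first pool alone, the 9 P278KY libraries alone, a replicate block and leaving out each library were alternatives. The script was tested on simulated data. Deposited TPM served only to rank levels between genes.

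The comparison and its 43 gene lists were chosen with earlier results of these data known, and no list was tested for enrichment. Named genes were the 15 with the largest rise and the 15 with the largest fall (mean log2 CPM of at least 1, no overlap of groups), the 12 highest by TPM in each direction, the 10 largest interactions in each direction, the 3 of smallest p in each list and members against their list's majority; not all are printed. Some genes are not reported here.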

Additional observations from a re-analysis of the deposited data

Results flagged for a closer look

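NoCre P278KY replicate 6 stood apart from the other NoCre P278KY libraries in 43 of the 55 values that lay far from the rest of their group, among 261 groups of values examined (21.1% had such a value). The criterion was a gap to the nearest sample that is large against the group's range. In normally distributed values chance marks about 1 group in 20 by it. CPM values need not be so distributed, and the groups share libraries, so that rate was not established here. NoCre P278KY was examined for every named gene and list, and the WT groups only for the 29 genes whose interaction was refitted. The Cre P278KY libraries were not examined by the criterion, so most of these values could only come from NoCre P278KY. That library was the highest of its group for Esrrg (88.1 CPM), Hoxa7 (49.1 CPM), Hoxc5 (23.3 CPM), Insr (98.4 CPM), Kcnk3 (12.2 CPM), Kdr (12.7 CPM), Mdfic (4.70 CPM) and Mest (109.9 CPM). It was the highest too for Mirg (33.8 CPM), Nefh (569.5 CPM), Nefm (1595 CPM), Psmb11 (5.05 CPM), Slc6a11 (384 CPM), Snap25 (3815 CPM), Snhg11 (2015 CPM) and Stc2 (6.27 CPM). It was the highest too for mt-Co1 (12020.0 CPM) and mt-Nd4 (22450.0 CPM). It was the lowest for Asns (11.8 CPM), Cacna2d3 (5.57 CPM), Cryab (51.4 CPM), Csf1r (12.2 CPM), Cst3 (134 CPM), Dleu7 (0.35 CPM), Lcat (1.74 CPM) and Nars (83.1 CPM). Lowest values were also seen for Rpl19 (18.6 CPM) and Slc32a1 (10.4 CPM). Among summed list levels it was the highest for gamma motor neuron (150.1 CPM), intermediate filament (3744 CPM), potassium channel (2681 CPM), GABA and glycine receptor (976 CPM), trophic factor receptor (1020.0 CPM), synaptic vesicle and release (8616 CPM) and Hox (614 CPM). It also led for endothelial and mural (601 CPM), excitatory interneuron (372 CPM), mitochondrially encoded protein (113700.0 CPM) and nuclear long non-coding RNA (177500.0 CPM). Among summed list levels it was the lowest for cytosolic tRNA synthetase (414 CPM), ER chaperone and unfolded protein response (794 CPM), proteasome subunit (708 CPM) and ependymal (7.49 CPM). Its protein-coding share was also the lowest of the 9 P278KY libraries.

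Single values of other libraries lay far from their group. In Cre WT replicate 2 this held for Pon3 (15.2 CPM). In NoCre P278KY replicate 1 this held for Bche (13.8 CPM), Fam129a (3.99 CPM) and Myh1 (112 CPM). In NoCre P278KY replicate 2 this held for Cdkn1a (44.9 CPM), Prx (98.7 CPM) and Schwann cell genes summed (759 CPM). In NoCre P278KY replicate 3 this held for Kif24 (7.52 CPM). In NoCre P278KY replicate 4 this held for Mxra8 (14.4 CPM) and Scn10a (9.83 CPM). In NoCre P278KY replicate 5 this held for Ebf2 (13.9 CPM). In NoCre WT replicate 5 this held for Chat (12.9 CPM).

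In 27 named genes the log2 difference between Cre and NoCre itself differed between genotypes by the edgeR interaction test. Given as P278KY minus WT, it was 6.03 for Cdsn, 4.20 for P2rx3, 3.72 for Slc7a3, 3.70 for Mdfic, 3.37 for Arap3, 3.26 for Fam129a, 3.12 for Phgdh and 3.04 for Stc2. Smaller positive values were 3.03 for Cdkn1a, 3.01 for Atf5, 2.93 for Ddr2, 2.92 for Psph, 1.72 for Wars and 1.36 for Rars. Where it was lower in P278KY, it was -4.31 for Slc13a4, -3.82 for Mxra8, -3.74 for Fbln1, -3.73 for Itm2a, -3.61 for Cd24a, -3.32 for Wnk4 and -3.31 for Pla2g3. The remaining values were -3.13 for Pon3, -2.76 for Mrvi1, -2.73 for Mest, -2.25 for Hist1h2bc, -1.63 for Cryab and -1.39 for Rbfox3.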

How the results depend on the processing

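Under every alternative the P278KY comparison called within 1.5 times as many genes, 3579 to 5203 higher and 4017 to 6209 lower, the latter most with DESeq2. RLE size factors gave 4376 higher and 5751 lower. Interaction calls were less stable. There were 3 higher and 2 lower with library sizes alone, which moved the median interaction of all genes from -0.02 to -0.32. DESeq2 gave 150 higher and 232 lower (39.3% of its calls higher, against 52.7% in edgeR), and the first pool alone 200 higher and 205 lower. Leaving out 1 library at a time gave 26 to 99 higher and 13 to 179 lower: 28 and 13 without Cre P278KY replicate 1, 36 and 24 without replicate 2, 26 and 22 without replicate 3, 36 and 28 without Cre WT replicate 3, 45 and 25 without Cre WT replicate 4, 70 and 179 without Cre WT replicate 1, 44 and 32 without NoCre P278KY replicate 5 and 99 and 63 without NoCre P278KY replicate 6. The cause was not tested.

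Mouse names share a number within and across some groups, which was fitted as a replicate block. Cre P278KY replicates 1 and 3 share a number, as do NoCre P278KY replicates 2 and 3, and 4 and 5. Correlations between same-numbered libraries of different groups ran from -0.12 to 0.18, so the numbers were not taken to pair the mice across groups. Likeness of same-numbered mice within a group was not tested. With the block 4351 genes were higher and 4231 lower in the P278KY comparison, and 64 higher and 85 lower in the interaction. The P278KY calls of Myh1, Phgdh, Pla2g3, Wnk4, Hoxc5, Fam129a and Mdfic were lost with it, beside those of Grp, Nmu and Scn10a. With it Rbfox3 was called higher in P278KY mice (0.727, edgeR adjusted p = 0.0104), and Chat higher in the interaction (1.276, edgeR adjusted p = 0.0367). The index pool as a term gave 4427 higher and 4676 lower in the P278KY comparison and 77 and 53 in the interaction.

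Signs turned only in values near 0, among all named genes and list medians. Cd24a in P278KY mice was -0.061 with DESeq2 and -0.061 with RLE size factors, -0.117 with the index pool as a term and -0.075 to 0.205 when 1 library was left out. Mest was 0.341 with the replicate block, 0.187 in the first pool and -0.303 to 0.215 when 1 library was left out, above 0 without Cre replicate 3 or NoCre replicate 6. Mrvi1 was 0.140 with the pool term, 0.149 in the first pool and -0.407 to 0.036 when 1 library was left out, above 0 without NoCre replicate 5. The potassium channel median was 0.194 in the first pool and -0.152 to 0.041 when 1 library was left out, and the sodium and calcium channel median 0.152 and -0.100 to 0.058; both were above 0 without Cre replicate 3 or NoCre replicate 6. The GABA and glycine receptor median was -0.111 with RLE size factors, -0.011 with library sizes alone, -0.024 without ribosomal RNA in the library sizes and -0.047 in the first pool. The trophic factor receptor median was -0.030 to 0.099 when 1 library was left out, above 0 without Cre replicate 3 or NoCre replicate 1, 2, 4 or 5.

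Of 2879 refitted values of named genes in the P278KY comparison 58, in 19 genes, no longer passed the threshold, and of 754 in the interaction 108, in 25 genes. With library sizes alone Cst3, Insr, Wars2 and Yars2 were among those lost. At the depth of these libraries, genes near 1 CPM, such as Scn10a, Grp and Nmu, rest on few reads.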
